A study of Mus musculus with 16 samples.

Results

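The genes described here encode the nuclear subunits of the oxidative phosphorylation system, measured in the livers of 16 mice. The rule that picks them uses the gene symbol and takes every symbol of the Nduf (series a, b, c, s and v), Sdh, Uqcr, Cox4 to Cox8 and Atp5 families. The array held 97 probes for 75 such genes, out of 36824 measured features, of which 20551 had a gene symbol. By name, 33 of the genes belong to complex I, 4 to complex II, 6 to complex III, 15 to complex IV and 14 to complex V. The other 3 match the naming pattern without encoding a subunit. Cox4nb, now called Emc8, belongs to a membrane protein complex of the endoplasmic reticulum, Cox7a2l is an assembly factor of respiratory supercomplexes, and Atp5s is now called Dmac2l. Ndufa4 is counted with complex I by its name, although its protein is now placed in complex IV.

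The livers came from 8 male mice heterozygous for a knockout of Lpl (Lpl+/-) and 8 male wild type littermates, all kept on chow. Lpl encodes lipoprotein lipase, which releases fatty acids from circulating triglycerides. Each liver was hybridised on 2-colour arrays against a common RNA pool made from the livers of 9 wild type mice, with dyes swapped. The labels give neither the ages and strain of the mice nor the exact deletion. Whole liver RNA was measured, so less RNA per cell and fewer cells of a type cannot be told apart. A value is the deposited log ratio of a mouse to the pool, taken as log10, so that a difference of 0.1 is 1.26-fold if that base holds. The ratio is read as mouse over pool. That direction is not settled for wild type 5 and wild type 8, whose values correlated at -0.352 over all probes and at -0.448 over the 75 genes. Over all probes, 1 of the 120 pairs of arrays was below -0.3, and whether an array was turned was not tested. With either array turned, 0 of the 75 genes were called and the median pair correlation described further on was 0.429 or 0.422, against 0.421 as deposited. A ratio to the pool gives no absolute level, so levels of different genes are not compared, and the liver label could not be checked by the level of its markers.

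Oxidative phosphorylation passes electrons from NADH through complex I, and from succinate through complex II, to coenzyme Q, complex III, cytochrome c and complex IV. The proton gradient built on the way drives complex V, the ATP synthase. Liver relies on it to oxidize fatty acids and to supply ATP for gluconeogenesis and urea synthesis. Most subunits are encoded in the nucleus and some in mitochondrial DNA, so both sets must be supplied together. Complex II stands apart, since it has nuclear subunits alone and also serves as an enzyme of the citrate cycle. The transcription factors NRF1, the ETS family factor GABP, YY1 and the estrogen-related receptors, with their coactivators of the PGC-1 family, are known regulators of these genes.

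Promoter windows, which ran from 250 bases before to 50 bases after the start, were found for 63 of the 75 genes in RefSeq sequence of build GRCm38.p6. These 68 windows were set beside all 32851 windows of that table, and both strands were read. The letters GCGCATGC, a part of the NRF1 site, were in 14.7% of the windows of these genes and in 2.71% of all windows. The ETS letters CCGGAAG were in 20.6% and 8.86%, the YY1 letters AAGATGGC in 14.7% and 2.75%, and the estrogen-related receptor letters CAAGGTCA in 5.88% and 1.56%, in the same order. Where 2 motifs shared letters, both were counted. A match of letters is a description and not a binding site. The 250 bases before the start are printed for 5 genes, with motif letters in capitals. Ndufs3, Atp5k and Ndufs5 were chosen because they hold such letters. Atp5c1, with the highest correlation with the other genes (0.967), and Ndufa13, with the lowest difference between genotypes, are not printed. Neither held any of the searched letters in these 250 bases. Ndufb7 had the smallest p between genotypes and Sdhd the lowest correlation with the other genes among the subunits. Ndufs3, Atp5k and Ndufs5 followed the other genes most closely among those with ETS, NRF1 and estrogen-related receptor letters before the start.
Ndufb7, chr8:83566508-83566757, plus strand: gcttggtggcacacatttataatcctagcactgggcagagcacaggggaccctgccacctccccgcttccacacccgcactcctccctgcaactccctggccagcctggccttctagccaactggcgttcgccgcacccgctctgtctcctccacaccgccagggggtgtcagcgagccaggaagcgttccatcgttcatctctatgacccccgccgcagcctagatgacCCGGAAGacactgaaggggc
Sdhd, chr9:50603850-50604099, minus strand: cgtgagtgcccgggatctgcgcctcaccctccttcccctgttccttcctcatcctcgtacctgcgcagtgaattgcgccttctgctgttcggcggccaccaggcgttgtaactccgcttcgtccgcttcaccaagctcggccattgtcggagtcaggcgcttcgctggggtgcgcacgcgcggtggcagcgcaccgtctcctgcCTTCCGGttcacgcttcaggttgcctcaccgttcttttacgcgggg
Ndufs3, chr2:90904722-90904971, minus strand: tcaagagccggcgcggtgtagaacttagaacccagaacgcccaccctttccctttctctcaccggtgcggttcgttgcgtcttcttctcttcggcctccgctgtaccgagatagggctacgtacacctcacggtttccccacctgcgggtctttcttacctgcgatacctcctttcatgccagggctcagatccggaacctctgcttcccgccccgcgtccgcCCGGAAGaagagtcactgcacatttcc
Atp5k, chr5:108434400-108434649, minus strand: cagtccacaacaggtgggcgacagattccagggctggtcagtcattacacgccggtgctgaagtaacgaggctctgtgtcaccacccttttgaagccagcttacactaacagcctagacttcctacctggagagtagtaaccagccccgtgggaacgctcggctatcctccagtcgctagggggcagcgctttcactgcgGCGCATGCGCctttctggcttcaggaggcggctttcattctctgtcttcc
Ndufs5, chr4:123718187-123718436, minus strand: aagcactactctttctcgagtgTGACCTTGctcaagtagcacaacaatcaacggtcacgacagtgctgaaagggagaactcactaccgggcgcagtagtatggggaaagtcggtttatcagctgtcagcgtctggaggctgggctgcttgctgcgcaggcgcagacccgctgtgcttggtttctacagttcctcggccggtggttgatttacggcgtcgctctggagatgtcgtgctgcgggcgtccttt
In Atp5k the capitals cover overlapping matches on both strands. The ETS letters stood before both Ndufb7 and Sdhd, although Ndufb7 correlated with the mean of the other genes at 0.713 and Sdhd at -0.392 over the mice.

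Lpl itself was low in every Lpl+/- liver. Its log10 ratio was lowest at -0.573, had a median of -0.362 and was highest at -0.208 in Lpl+/- livers, against -0.0622, -0.0234 and 0.0496 in wild type livers. The groups did not overlap, and the mean difference of -0.378 (SE 0.0494) is 0.419-fold, with a Benjamini-Hochberg adjusted p of 0.0158 from limma. An exact permutation test over mice gave a two-sided p of 0.0001554, the smallest that the design allows. The adjusted p of the Lpl difference was under 0.05 in 22 of 30 alternative settings and not in the other 8. It was 0.615 with quantile normalization, 0.837 with robust trended variances and 0.235 with the replicate number as a block (0.0523 on the same 14 arrays without the block). It was 0.121 without Lpl+/- 3, Lpl+/- 8 and wild type 4, whose arrays most often reached the limit of 2, 0.128 without wild type 5 and wild type 8, 0.0577 without Lpl+/- 2 and 0.0526 without wild type 8.

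No oxidative phosphorylation gene differed between Lpl+/- and wild type livers after adjustment. Of all 36824 features, 6 (0.0163%) had an adjusted p under 0.05 in limma, and 0 of the 75 genes did, with a lowest adjusted p of 0.836. At an unadjusted p under 0.05 there was 1 gene of 75, Ndufb7 (1.33%), against 5.60% of all features. In the upward direction the background was 2.23%, and in the downward direction, where 0 of the 75 genes passed, it was 3.38%. Groups that did not overlap were seen for 0.0380% of all features and for 0 of the 75 genes. The differences ran from -0.0563 (0.878-fold, if the values are log10) to 0.0511 (1.12-fold). Of the 95% intervals of the differences, 61 of 75 lay within -0.1 to 0.1, that is within 1.26-fold either way, so changes larger than that are outside the interval for those genes. For the other 14 genes the intervals reached past that bound.

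The directions were mixed. In Lpl+/- livers 29 genes had a higher mean and 46 a lower mean than in wild type, so 61.3% were lower, beside 49.0% of all features. The median difference was -0.00685, against 0.00053 over all features, and it was 0.00065 without wild type 2 and -0.0137 without wild type 6. By complex, 14 genes were higher and 19 lower for complex I, 4 and 0 for complex II, 1 and 5 for complex III, 4 and 11 for complex IV, and 4 and 10 for complex V. The median differences in that order of complexes were -0.0024, 0.0246, -0.0134, -0.0127 and -0.0121. With wild type 8 turned, 20 of the 75 genes were higher and 55 lower, complex II had 3 higher and 1 lower, since the Sdhb difference became -0.00652, and its median was 0.0114. With wild type 5 turned, 31 were higher and 44 lower, and the complex II median was 0.0378. Leaving out 1 mouse moved the medians as well. For complex I the range was -0.0110 (without Lpl+/- 2) to 0.00480 (without wild type 2), and for complex II 0.0132 (without wild type 8) to 0.0382 (without Lpl+/- 4). For complex III it was -0.0208 (without wild type 6) to -0.00052 (without Lpl+/- 4), for complex IV -0.0171 (without wild type 6) to -0.00592 (without wild type 2), and for complex V -0.0212 (without Lpl+/- 6) to -0.00395 (without wild type 2). None of these differences passed the test for any gene, and these genes do not vary independently of each other, so the counts describe the data and carry no test.

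**Figure D1:**
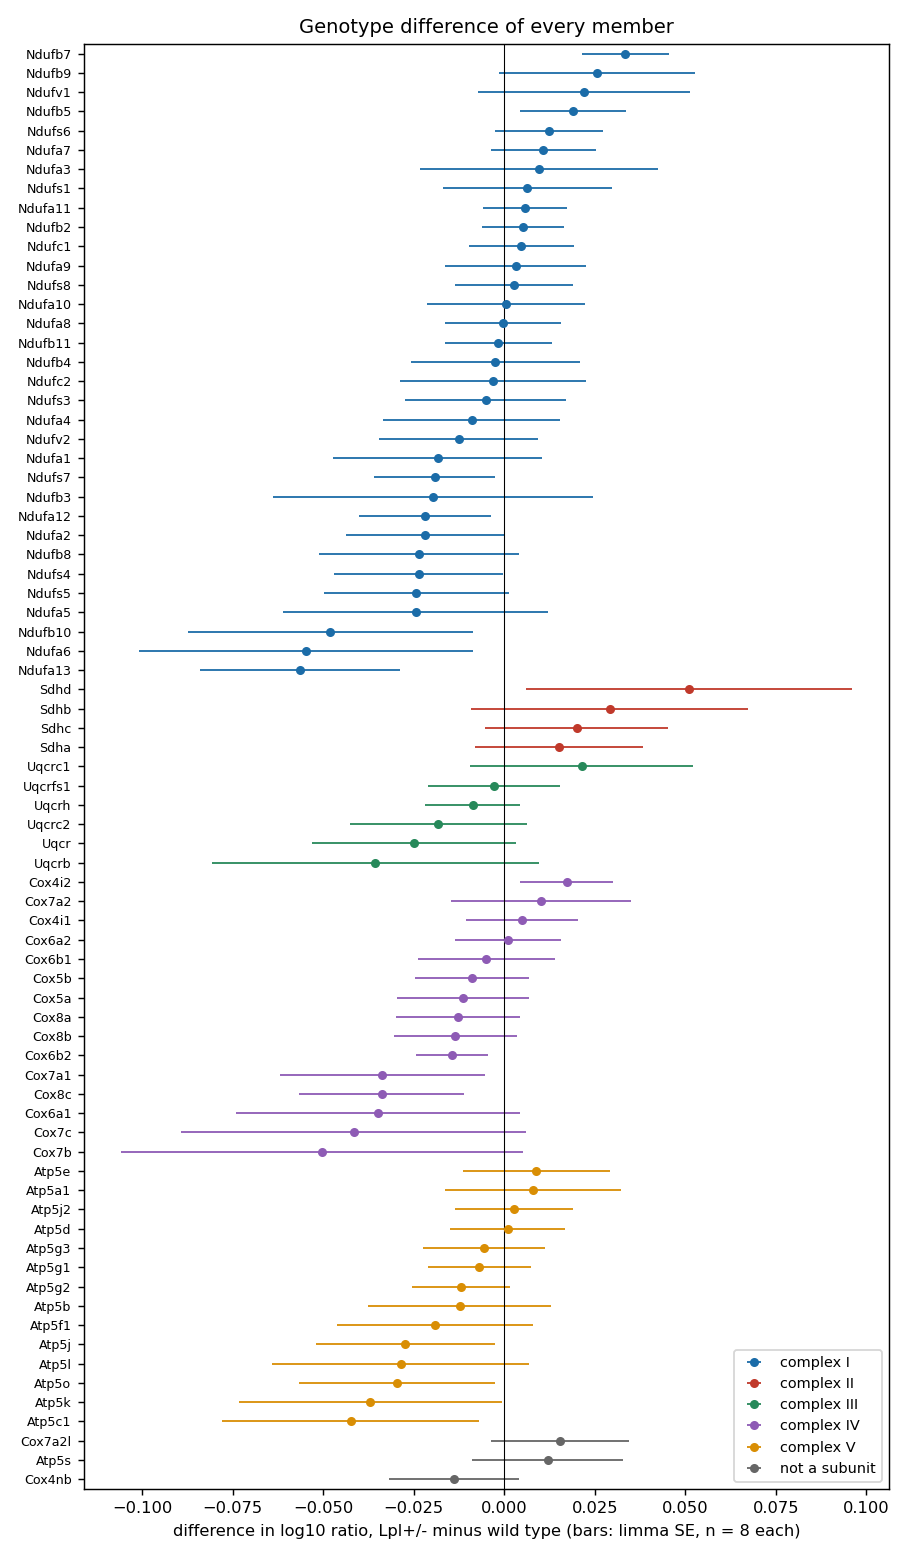
Difference in mean log10 ratio, Lpl+/- minus wild type, for each of the 75 genes, with limma standard errors as bars (n = 8 mice each) and colours for the complexes. The points lie between -0.0563 and 0.0511, on both sides of 0, and the 4 complex II genes lie above 0 as deposited, or 3 of the 4 with the sign of wild type 8 turned.

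Complex I is the entry point for electrons from NADH. Ndufb7, an accessory subunit of its membrane arm, had a log10 ratio of at least 0.0005, a median of 0.0181 and a maximum of 0.0671 in Lpl+/- livers, against -0.0348, -0.006 and 0.0174 in wild type livers. The groups overlapped, and the difference was 0.0334 (SE 0.0120, 95% interval 0.00808 to 0.0588, 1.08-fold), with an unadjusted p of 0.0129, an adjusted p of 0.836 in limma and an exact permutation p of 0.00622. Ndufa13, an accessory subunit also known as GRIM-19, had values of -0.102, -0.0544 and 0.0409 in Lpl+/- livers (lowest, median, highest), against -0.0863, -0.0004 and 0.123 in wild type livers. Its mean difference was the lowest of all 75 genes as deposited, -0.0563 (SE 0.0276, 95% interval -0.115 to 0.00214), with an adjusted p of 0.836. With wild type 8 turned it was -0.0594, and Cox7c was lower at -0.0647. These were the 2 smallest p values of the 75 genes, and both genes lie on chromosome 8, as Lpl does. Ndufa13 is 14 measured genes away from Lpl and Ndufb7 155 away, while Cox4nb (501 away) and Cox4i1 (502 away) lie further off among the 965 measured genes of that chromosome. In limma these 2 had adjusted p values of 0.891 and 0.957. Ndufa6, an accessory subunit of the LYR family, had a difference of -0.0547 (SE 0.0462, adjusted p = 0.846), with values of -0.128, -0.0774 and 0.09 in Lpl+/- livers (lowest, median, highest) and of -0.135, -0.00015 and 0.205 in wild type livers. The 6 core subunits measured belong to the arm that takes electrons from NADH to coenzyme Q. Their differences were 0.0220 for Ndufv1, -0.0126 for Ndufv2, 0.00634 for Ndufs1, -0.00511 for Ndufs3, -0.0192 for Ndufs7 and 0.00280 for Ndufs8.

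**Figure D2:**
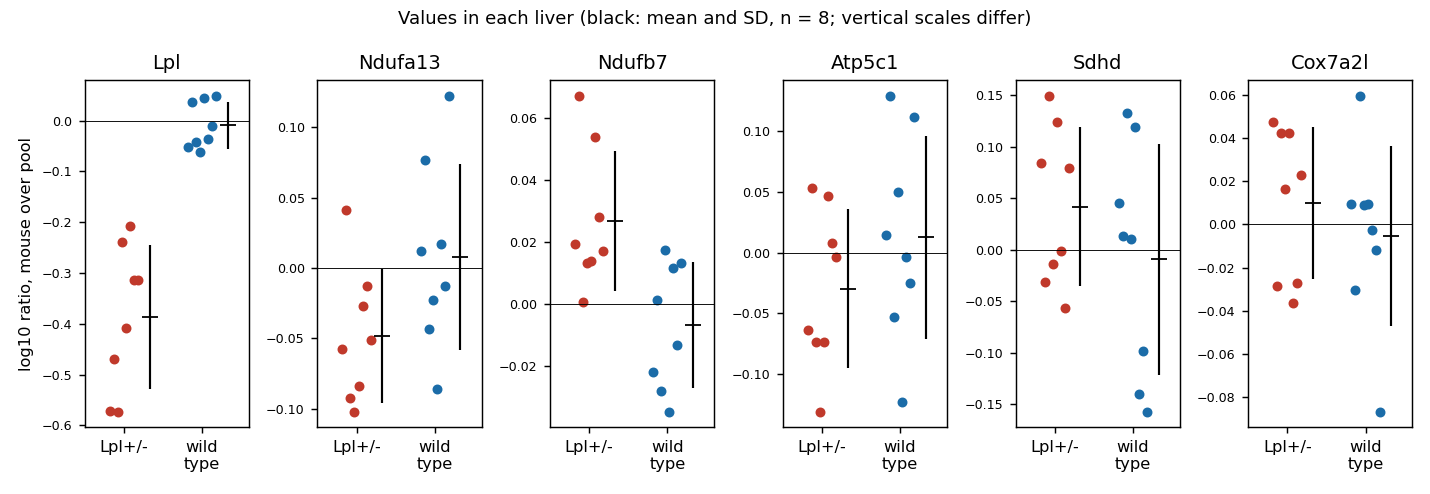
Log10 ratio to the pool in each of 16 livers for Lpl, Ndufa13, Ndufb7, Atp5c1, Sdhd and Cox7a2l, Lpl+/- on the left of each panel and wild type on the right, with the mean and SD in black (n = 8 each, vertical scales differ). The groups are apart for Lpl and overlap for the other 5 genes.

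Complex II is succinate dehydrogenase, with a flavoprotein (Sdha), an iron-sulfur protein (Sdhb) and the membrane anchors Sdhc and Sdhd that bind coenzyme Q. Sdhd had the highest difference of the 75 genes as deposited, 0.0511 (SE 0.0450, 95% interval -0.0442 to 0.146, adjusted p = 0.847). With wild type 8 turned it was 0.0265, below the 0.0302 of Ndufb7. Its values were -0.0565, 0.039 and 0.150 in Lpl+/- livers (lowest, median, highest), against -0.157, 0.012 and 0.133 in wild type livers, so the groups overlapped over most of their range. Sdhb was between -0.157 and 0.103 in Lpl+/- livers (median 0.0638) and between -0.143 and 0.078 in wild type livers (median 0.0122), and its lowest Lpl+/- value was below every wild type value. The differences were 0.0200 for Sdhc, 0.0291 for Sdhb and 0.0151 for Sdha, none with an adjusted p under 0.05. The 2 probes of Sdha disagreed, with differences of -0.0275 and 0.0577, and had a correlation of only 0.0284 with each other over the mice.

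Complex III hands electrons from coenzyme Q to cytochrome c. Of its 6 genes 5 had lower means in Lpl+/- livers, with differences from -0.0356 (Uqcrb, a small subunit at the coenzyme Q site) to -0.00286 (Uqcrfs1, the Rieske iron-sulfur protein). Uqcrb had values of -0.129, -0.0628 and 0.131 in Lpl+/- livers (lowest, median, highest) and of -0.117, 0.00275 and 0.165 in wild type livers. Uqcrc1, core protein 1, had a difference of 0.0215, with values of -0.0781, 0.0216 and 0.0988 in Lpl+/- livers and of -0.105, 0.0401 and 0.0752 in wild type livers, so that its median was the lower one in Lpl+/- although its mean was the higher. The 2 probes of Uqcrfs1 had a correlation of -0.432, so its mean joins probes that disagreed. None of the 6 passed the test.

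Complex IV, cytochrome c oxidase, has several subunits with liver and muscle or testis versions. The difference was largest for Cox7b, at -0.0503 (95% interval -0.168 to 0.0673, adjusted p = 0.871), a small subunit whose values varied most of all 75 genes, with an SD of 0.119 within groups. Its values were -0.153, -0.0803 and 0.154 in Lpl+/- livers (lowest, median, highest) and -0.174, 0.0196 and 0.231 in wild type livers. The muscle, testis and lung versions, which are Cox4i2, Cox6a2, Cox6b2, Cox7a1, Cox8b and Cox8c, had differences between -0.0338 (Cox8c) and 0.0172 (Cox4i2). Cox8c, a testis version, ran from -0.145 to 0.0332 in Lpl+/- livers and from -0.0514 to 0.041 in wild type livers. The means over 6 skeletal muscle markers lay between -0.0156 and 0.0179 in Lpl+/- livers and between -0.0444 and 0.0141 in wild type livers, and a single marker, Tnnt3, went down to -0.164 in wild type. The part of muscle RNA in these values was not tested.

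Complex V makes ATP from the proton gradient. Its gamma subunit gene Atp5c1, part of the rotating shaft, had values of -0.131, -0.0336 and 0.0531 in Lpl+/- livers (lowest, median, highest), against -0.123, 0.00515 and 0.129 in wild type livers. The difference was -0.0423 (SE 0.0355, 95% interval -0.117 to 0.0328, adjusted p = 0.845). The catalytic beta subunit gene Atp5b differed by -0.0123 and the alpha subunit gene Atp5a1 by 0.00799. For Atp5e, the epsilon subunit, the difference was 0.00891. Atp5j, coupling factor 6 of the stalk, differed by -0.0274, Atp5o, which joins the stalk to the head, by -0.0296, and the c ring genes Atp5g1, Atp5g2 and Atp5g3 by -0.00685, -0.0119 and -0.00561.

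The variation between mice was shared by most of these genes. With group means removed, the median Pearson correlation over the 2775 pairs of the 75 genes was 0.421 over 16 mice (SE from leaving out mice 0.0886), and 42.9% of pairs were above 0.5. Over all pairs of named genes the median was -0.001, with 7.99% above 0.5. Each correlation compares genes measured on the same arrays, so anything common to an array enters all of them, and they are given without a p. The mean of the 75 genes correlated with the median of the array (r = 0.63, rho = 0.35, or r = 0.47 without the 2 mice farthest from the median). Array medians lay between -0.0045 and 0.0072. With each array centred on its median the median pair correlation was 0.386. The shared variation held within each genotype, with 0.428 among Lpl+/- mice and 0.452 among wild type mice.

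The mean over the 75 genes was lowest in Lpl+/- 4 (-0.0586), where 7 of 75 genes were above the pool, and high in Lpl+/- 2 (0.0382), where 63 were. Among wild type mice it was lowest in wild type 6 (-0.0499), with 12 genes above the pool, and highest in wild type 2 (0.0473), with 67. The genotype means were -0.00464 ± 0.0297 in Lpl+/- and 0.00330 ± 0.0325 in wild type (SD, n = 8 each), so both genotypes held high and low livers. Without Lpl+/- 4 and wild type 6, the 2 mice farthest from the median, the median pair correlation was 0.313 and 34.1% of pairs were above 0.5.

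**Figure D3:**
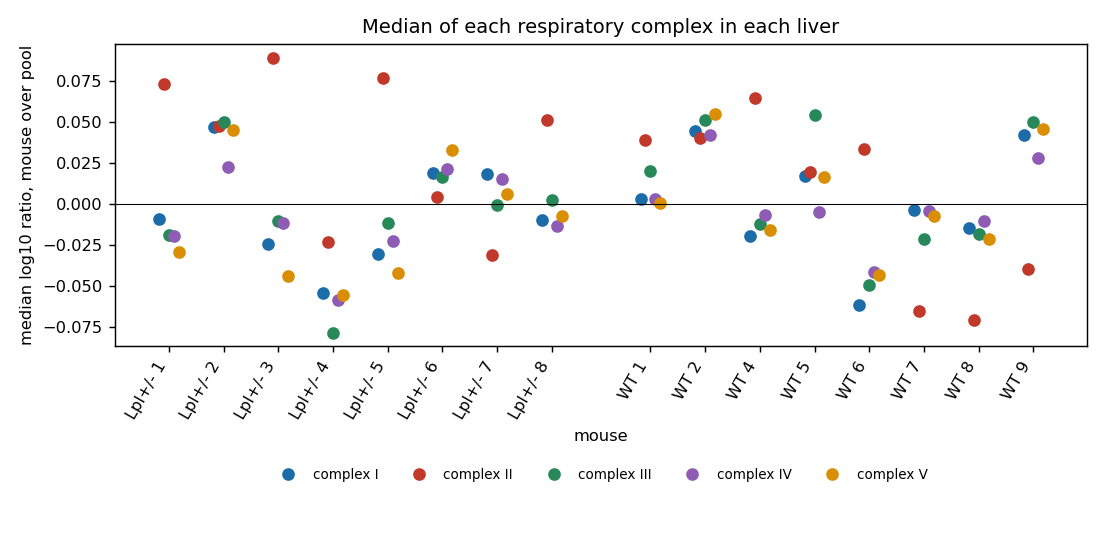
Median log10 ratio of the genes of each complex in each of 16 livers, 8 Lpl+/- on the left and 8 wild type on the right. Complexes I, III, IV and V move together from mouse to mouse. As deposited, the median of the complex II genes, which differ among themselves, lies above all 4 others in 8 mice and below all of them in 6.

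Complexes I, III, IV and V moved together. The median over complex I correlated with the medians over complexes III, IV and V with r = 0.91, 0.94 and 0.96 over the 16 mice. Pairs of genes within complex I had a median r of 0.543, and within complex V 0.561, while pairs across those complexes had 0.546. Complex III pairs had a median r of 0.356 and complex IV pairs 0.322. Across complexes, I with III gave 0.502, III with V 0.495, I with IV 0.409, IV with V 0.398 and III with IV 0.385.

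The genes of complex II went different ways. Sdha followed the other genes (r = 0.676 with their mean), Sdhb less so (0.347), and Sdhc and Sdhd had r below 0, with 3 of the 6 pairs within the complex below 0. The complex II median, which joins them, had r = -0.11 with the medians of complex I and complex V, r = 0.19 with complex III and r = -0.04 with complex IV. It lay above all 4 other complex medians in 5 of 8 Lpl+/- mice and in 3 of 8 wild type mice, and below all of them in 2 and in 4. In Lpl+/- 3 the complex II median was 0.0891 and the other 4 were between -0.0438 and -0.0105, while in wild type 9 it was -0.0397 and the others were between 0.0282 and 0.0499. The median r of complex II genes with those of other complexes was 0.035 for complex I, 0.151 for III, 0.0695 for IV and 0.132 for V. The complex II median rests on 4 genes.

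**Figure D4:**
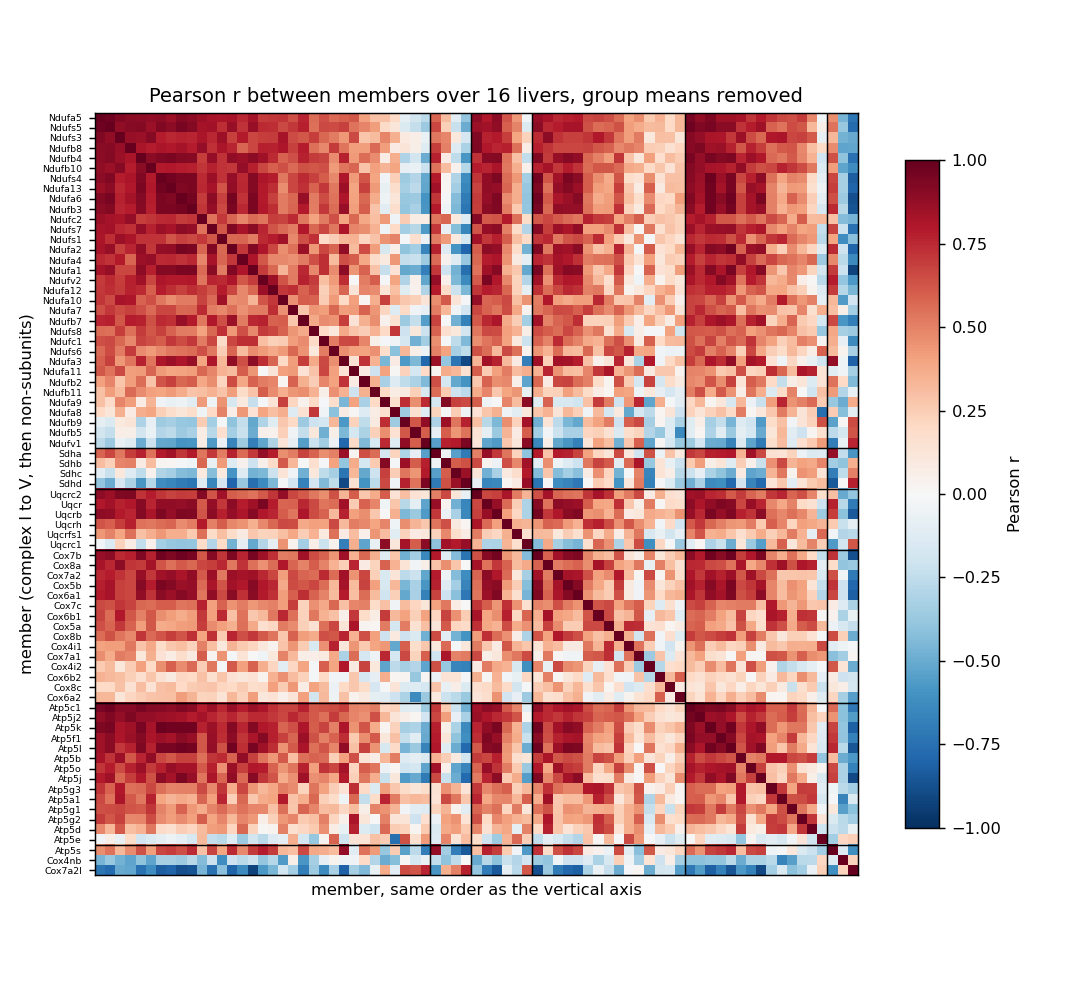
Pearson r over 16 livers, with group means removed, for each pair of the 75 genes, ordered by complex and then by correlation with the other genes (red positive, blue negative). Most of complexes I, III, IV and V are red, with a median r of 0.421 over all pairs, while Sdhd, Ndufv1 and Cox7a2l form blue bands.

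Set against the mean of the other 74 genes, 52 genes had r above 0.5, 15 had r from 0 to 0.5 and 8 had r below 0. The median was 0.712, beside 0.00217 for the 20476 other named genes, of which 14.04% were above 0.5. Above 0.9 there were 10 of the 75 genes (13.3%) and 29 of the others (0.142%). By complex, r was above 0.5 for 26 of 33 complex I genes, 1 of 4 of complex II, 4 of 6 of complex III, 9 of 15 of complex IV, 12 of 14 of complex V and 0 of the 3 non-subunits.

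The closest followers were Atp5c1 (r = 0.967), Ndufa5 (0.964), Ndufs5 (0.956), Ndufs3 (0.956), Atp5j2 (0.942) and Ndufb8 (0.933). Ndufs3 is a core subunit of the arm of complex I that passes electrons to coenzyme Q, and Ndufa5 is an accessory subunit of that arm. In complex III, core protein 2 (Uqcrc2) had r = 0.912, yet core protein 1 (Uqcrc1) had 0.00089. In the NADH-binding part of complex I, Ndufv2 had r = 0.768 and Ndufs1 0.818, yet Ndufv1, which carries the flavin and the NADH site, had -0.237. In complex V, the b subunit Atp5f1 (0.879) and the membrane subunits Atp5k (0.919) and Atp5l (0.838) followed, as did all 3 genes of the c ring (Atp5g1 0.622, Atp5g2 0.607, Atp5g3 0.708), while Atp5e did not (-0.00988).

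**Figure D5:**
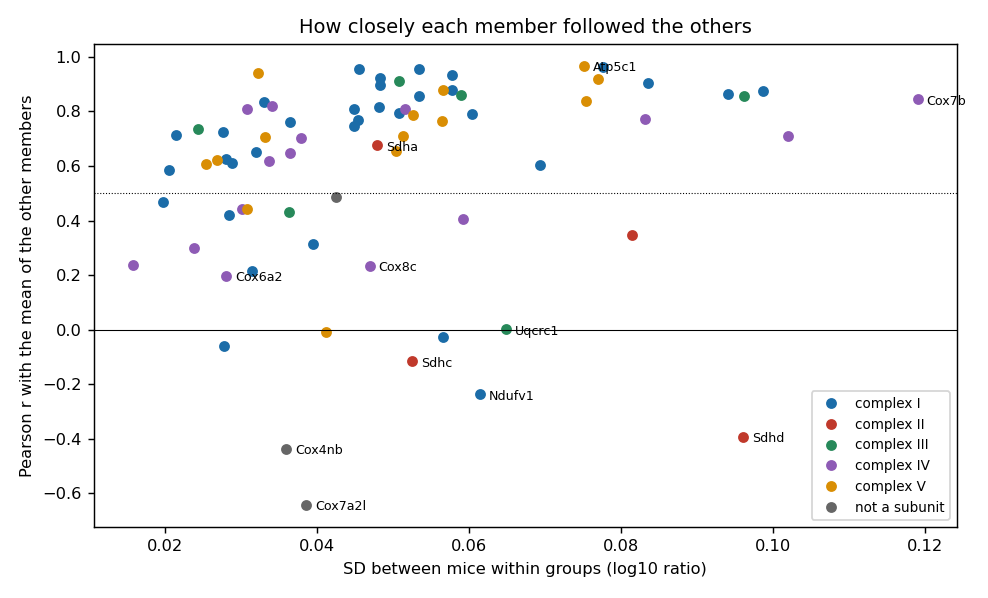
Pearson r of each gene with the mean of the other genes, over 16 livers with group means removed, against its SD between mice within groups (log10 ratio), coloured by complex. Of 75 genes 52 lie above the dotted line at 0.5, and Cox7a2l, Cox4nb, Sdhd and Ndufv1 are among the 8 below 0.

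The genes with the lowest r were Cox7a2l (-0.642), Cox4nb (-0.438), Sdhd (-0.392), Ndufv1 (-0.237), Sdhc (-0.116), Ndufb5 (-0.0611), Ndufb9 (-0.0268) and Atp5e (-0.00988). Of these 8, Cox7a2l and Cox4nb are not subunits. Cox7a2l has 4 probes, whose pairwise correlations ran down to -0.575. Of the 8 genes 7 had a higher mean in Lpl+/- livers and 1 a lower mean, against 13 and 39 of the 52 genes with r above 0.5, and none of the 75 was called. Genes with r between 0 and 0.5 had smaller spread, with a median within-group SD of 0.0315, against 0.0494 for those above 0.5 and 0.0469 for those below 0.

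A set of genes varied with Sdhd, the subunit with the lowest r. This set was picked after its values were seen. It held 9 of the 74 other genes (12.2%) at r above 0.5, beside 19.1% of all other named genes: Ndufv1 (0.942), Uqcrc1 (0.868), Sdhc (0.861), Cox7a2l (0.774), Ndufb9 (0.773), Ndufa9 (0.657), Sdhb (0.636), Ndufb5 (0.545) and Cox7a1 (0.518). The means over Sdhd and these 9 genes ran from -0.0568 to 0.0722 in Lpl+/- livers and from -0.0634 to 0.0680 in wild type livers. Another 27 of the 74 genes (36.5%) had r below -0.5 with Sdhd, beside 18.7% of all other named genes, and Sdhd was itself picked for its low r with these genes. Within complex II, Sdha, the mean of 2 probes that disagreed, had r = -0.704 with Sdhd, -0.542 with Sdhc and -0.053 with Sdhb. Across all pairs the highest r was 0.977, between Ndufs4 and Atp5k, and the lowest was -0.928, between Ndufa1 and Cox7a2l.

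In complex IV the 6 tissue versions had a median pair r of 0.137 and a median within-group SD of 0.0309, against 0.519 and 0.0379 for the other 9 genes, a difference that was not tested. The genes overlapped, since the muscle version Cox8b had r = 0.620 with the mean of the other genes and the general version Cox4i1 had 0.444. The pairs of versions had r = 0.359 for Cox6a1 and Cox6a2, 0.00989 for Cox7a2 and Cox7a1, 0.402 for Cox8a and Cox8b and 0.242 for Cox4i1 and Cox4i2.

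For 18 genes with several probes, the probes' correlation had a median of 0.452, all pairs were above 0.5 for 8 genes, and a pair was below 0 for 3 (Cox5b, Cox7a2l and Uqcrfs1). The letters searched in promoters were found both in genes that followed the others and in genes that did not. Among genes with a window, the NRF1 letters were in 7 of 47 with r above 0.5 and 3 of the 16 others, the ETS letters in 11 and 3, the YY1 letters in 9 and 1, and the estrogen-related receptor letters in 3 and 1.

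Other lists of genes, assembled by function or, for the mitochondrial and cytosolic ribosomal proteins, by symbol, showed 0 called genes between genotypes as well. For mitochondrial ribosomal protein genes the mean over 72 genes had r = 0.91 with the mean of the 75 genes (rho 0.86, and 0.86 without the 2 farthest mice), with 33 higher and 39 lower in Lpl+/- livers. Gene by gene the relation was looser, with 28 of the 72 at r above 0.5, 25 below 0 and a median pair r of 0.149 with the 75 genes. The same median was 0.227 for coenzyme Q and cytochrome c genes, 0.190 for the citrate cycle and 0.165 for cytosolic ribosomal proteins. It was 0.0873 for assembly factors, -0.0212 for carriers and uncouplers and -0.0647 for regulators. The lists differ in size, so r of their means are not ranked. The genes of coenzyme Q synthesis with cytochrome c and c1, 10 of them measured, had r = 0.767 (rho 0.8, and 0.673 without the 2 mice), with 6 higher and 4 lower. Assembly factors had r = 0.647 (17 of 28 higher) and the citrate cycle 0.608 (6 of 15 higher), and these dropped to 0.474 and 0.419 without the 2 mice. Gene by gene, 8 of the 28 assembly factors had r above 0.5 and 11 below 0, and 7 and 6 of the 15 citrate cycle genes. Cytosolic ribosomal protein genes had r = 0.474, with 5 of 55 higher and 50 lower, beside 49.0% of all features lower. None was called, and 10 of the 55 had an unadjusted p under 0.05 in limma, beside 5.60% of all features. These genes varied together (median pair r 0.430 within the list), so the counts carry no test. For 2 lists r was negative, at -0.272 for carriers and uncouplers (4 of 8 higher, -0.292 without the 2 mice) and at -0.0166 for regulators (8 of 14 higher, 9 of 14 with r below 0), which became -0.486 without the 2 mice.

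Of the regulators, Ppargc1a, the coactivator PGC-1 alpha, had r = 0.76 with the mean of the 75 genes and Ppargc1b 0.593. Tfb2m, a mitochondrial transcription factor, had 0.781, against -0.777 for Nrf1 and -0.633 for Yy1. The difference between Lpl+/- and wild type livers was -0.0734 for Ppargc1a, -0.0825 for Ppargc1b and 0.0881 for Gabpa, each with an adjusted p of 0.836. In the citrate cycle, Idh3g (0.862), Suclg1 (0.808) and Idh3b (0.753) followed the oxidative phosphorylation genes, while citrate synthase (Cs, -0.475) and pyruvate carboxylase (Pcx, -0.618) had negative r. The ADP/ATP carrier Slc25a4 had a difference of -0.0467, with an adjusted p of 0.836 in limma.

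Markers of other cell types had list means that also varied between mice. For the 4 pancreas acinar markers r with the mean of the 75 genes was 0.703, or 0.637 without the 2 farthest mice (1 of 4 markers above 0.5), with list means from -0.0260 to 0.0560 in Lpl+/- livers and from -0.0104 to 0.0554 in wild type livers. For the 5 adipocyte markers r was 0.563, or 0.369 without those mice (0 of 5 above 0.5), with list means from -0.176 to 0.102 in Lpl+/- and from -0.246 to 0.0925 in wild type livers. Hepatocyte markers had r = -0.0921, or -0.464 without those mice, and macrophage markers had -0.383, or -0.0771. The remaining marker lists had r between -0.283 (endothelial) and 0.0723 (skeletal muscle). Within a list, the median pair r was -0.0811 for pancreas and 0.0347 for adipocyte markers, against 0.277 for hepatocyte and 0.608 for macrophage markers. The part of these cell types in the shared variation was not tested. Over the whole array the named genes outside the set most like its mean were Olfr898 (r = 0.953), 2510002D24Rik (0.945), 2010110K16Rik, now Cmc1 (0.941), 3300001H21Rik, now Mettl7a1 (0.936), and Mettl5 (0.935), over 16 mice.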

How the data were processed

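RNA of each liver was measured with a pool on 2-colour arrays. The authors deposited 1 log ratio per probe and mouse, taken as log10 because values end at exactly 2 on either side of 0, which would be 100-fold. Not stated in the labels are the base, scanner, background correction, normalization and how swapped dyes were joined. The direction, likely mouse over pool, is not settled for wild type 5 and wild type 8, whose values over all probes correlated at -0.352. Values were left as deposited. Probes of 1 symbol, in the platform annotation, were averaged. Groups were compared over all 36824 features with limma 3.58.1 in R 4.3.3 (lmFit, eBayes, two-sided, Benjamini-Hochberg, threshold 0.05). Correlations used values minus group means. P-values rest on 1 value per mouse, so they measure the spread between mice together with that of the measurement. The number of mice limits the precision. Scripts were tested on simulated data. In each complex the 2 genes with the smallest p and those with the highest and lowest difference were named, with the 3 highest and 3 lowest correlations over all 75 genes, pairs of isoforms, the 5 other genes most like the mean, and up to 3 genes of each further list. Other genes named were chosen after their values were seen. The genes and lists were chosen with earlier results of these data known. Alternatives covered centring, probe averaging, filters, sign, blocks and left-out mice.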

Additional observations from a re-analysis of the deposited data

Results flagged for a closer look

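In 2 of 62 groups of 8 mice, 1 mouse lay far from the other 7 of its group, and chance would give about 3.1 at 1 in 20. For Cox7a1, the muscle version of a complex IV subunit, Lpl+/- 4 had a log10 ratio of -0.1568, and the nearest other Lpl+/- mouse had -0.0385. For Cox6a2, another muscle version, wild type 1 had -0.0765, and the nearest other wild type mouse had -0.0185.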

How the results depend on the processing

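In all 30 alternatives 0 oxidative phosphorylation genes were called, and 0 to 2 had an unadjusted p under 0.05 (0 with features of small log ratios filtered out, 2 with single probes, with wild type 5 or wild type 8 turned, or without Lpl+/- 2, wild type 4 or wild type 6). The median difference ran from -0.0137 to 0.00065 and kept its sign in 28 of 30 (not with array weights or without wild type 2), complex I kept it in 23, while the complex II median stayed positive and those of complexes III, IV and V negative in all 30, at sizes that moved by over 1.5 times. The median pair correlation ran from 0.313 to 0.489 over 28 alternatives, and from 0.374 to 0.451 with 1 mouse left out. It was 0.313 without Lpl+/- 4 and wild type 6, chosen after seeing the data, and 0.429 and 0.422 with wild type 5 or wild type 8 turned. Of 7 shared replicate numbers, 3 had deviations correlated above 0.1, and the 7 correlations ran from -0.245 to 0.381. The labels do not say what a shared number marks, and these values cannot tell whether it marks a pairing. With the replicate block (14 arrays) 0 genes were called and the median difference was -0.00163. The Lpl difference was -0.343 there (adjusted p = 0.235), and over the alternatives it was called in 22 of 30, with an adjusted p between 0.0046 and 0.837.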
